A study of Saccharomyces cerevisiae with 8 samples.

Results

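Deletion of *PSH1* at the native level of Cse4 was followed by comparing the ChIP peaks of the *psh1 3Flag-CSE4* strain with those of *3Flag-CSE4*. A psh1-only peak was a *psh1 3Flag-CSE4* peak that shared no base with any *3Flag-CSE4* peak. Of the 66 peaks of *psh1 3Flag-CSE4*, 49 (74.2%) met this rule, and the *3Flag-CSE4* list held 17 peaks. The share of 74.2% follows from the rule that chose the peaks and is given as a description.

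Cse4 is the budding yeast form of CENP-A, the histone H3 variant that replaces H3 in the centromeric nucleosome and on which the kinetochore is built. Each budding yeast chromosome has a point centromere, a short sequence made of the elements CDEI, CDEII and CDEIII, where CDEI is bound by Cbf1, CDEII is a stretch of almost pure A and T, and CDEIII is bound by the CBF3 complex. Psh1 is an E3 ubiquitin ligase that binds Cse4 and marks it for breakdown.

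The series held 8 libraries from 4 haploid *MATa* strains of the W303 background, and each strain gave 1 input library and 1 library of anti-Flag ChIP. All 4 strains lacked the endogenous *CSE4* gene (*cse4::KAN*) and carried *3Flag-CSE4* under the *CSE4* promoter at *URA3*. The *psh1 3Flag-CSE4* strain also carried *psh1::KAN*, and *3Flag-CSE4* kept *PSH1*. In *psh1 pGAL-3Flag-CSE4* and *pGAL-3Flag-CSE4* a further copy stood under the *GAL* promoter at *LEU2*, in a *psh1::KAN* and a *PSH1* background, as the names say. Log-phase cells of all strains were grown in lactic acid medium, received 2% galactose for 2 h, and were crosslinked before the chromatin was cut with micrococcal nuclease. Each strain and library type had 1 library, so no difference could be set against a spread between replicates, and every interval given here covers counting error only. The intervals also count each peak as independent, although several peaks can lie beside the same centromere. The lists analysed give positions alone, and the study's read depths and coverage tracks were not used here.

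*PSH1* was overlapped by 0 input peaks in *psh1 3Flag-CSE4* and by 8 in *3Flag-CSE4*, as the labels state. Chromosome XI stood apart in the input lists as well as in the ChIP lists of the strains without *PSH1*, and values of the distal peaks are also given without it.

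The sequences that follow are examples of the DNA under psh1-only peaks. Those around *CEN8* are written from the CDEI side to the CDEIII side. In the stretch over the centromere the capitals mark CDEI at the left and CDEIII at the right, and in all other stretches they mark runs of at least 5 A or 5 T. The first is the psh1-only peak on the CDEI side (chrVIII:105750-105980, minus strand of sacCer3), the next is the centromere with its peak (chrVIII:105580-105703, minus strand), and the third is the psh1-only peak on the CDEIII side (chrVIII:105330-105500, minus strand).
CEN8, CDEI side: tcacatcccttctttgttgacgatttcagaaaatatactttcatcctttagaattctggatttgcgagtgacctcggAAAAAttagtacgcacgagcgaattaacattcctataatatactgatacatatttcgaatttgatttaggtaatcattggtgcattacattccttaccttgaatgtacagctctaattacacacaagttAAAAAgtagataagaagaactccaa
CEN8, centromere: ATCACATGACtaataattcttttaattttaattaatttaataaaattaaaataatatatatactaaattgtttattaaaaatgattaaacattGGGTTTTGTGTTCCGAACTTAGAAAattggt
CEN8, CDEIII side: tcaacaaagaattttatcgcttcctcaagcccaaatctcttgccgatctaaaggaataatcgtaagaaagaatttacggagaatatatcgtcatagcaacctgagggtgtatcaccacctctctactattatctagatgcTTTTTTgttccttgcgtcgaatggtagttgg
The centromeric stretch was 83.1% A+T, against 66.7% for the peak on the CDEI side and 60.8% for that on the CDEIII side. The next 5 stretches are psh1-only peaks from the chromosome arms, written on the plus strand. They are the site between *SSB1* and *HO* (chrIV:46120-46170), the site between *TMA19* and *OAR1* (chrXI:335120-335190), the sites on either side of *CSE4* (chrXI:345900-345980 and chrXI:346990-347090), and the site between *TCD2* and *GPX1* (chrXI:389130-389210).
SSB1/HO: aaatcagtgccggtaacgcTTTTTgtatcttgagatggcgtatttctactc
TMA19/OAR1: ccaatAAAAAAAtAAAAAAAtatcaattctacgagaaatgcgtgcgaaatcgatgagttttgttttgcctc
LPX2/CSE4: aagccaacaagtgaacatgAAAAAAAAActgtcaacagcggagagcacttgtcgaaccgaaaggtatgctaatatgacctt
CSE4/ELM1: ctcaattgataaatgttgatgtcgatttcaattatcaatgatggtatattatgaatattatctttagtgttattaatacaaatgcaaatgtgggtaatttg
TCD2/GPX1: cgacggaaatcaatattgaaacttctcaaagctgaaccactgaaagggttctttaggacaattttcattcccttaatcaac
The A+T content of these 5 peaks was 58.8%, 69.0%, 59.3%, 75.2% and 63.0% in the order printed. All but the first are on chromosome XI, and the sites beside *CSE4* have a limit that is given below. The 8 psh1-only peaks on other chromosomes and farther than 500 bp from a centromere had a median of 62.2%.

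The psh1-only peaks gathered at the borders of the centromeres. The centres of 29 of the 49 lay within 500 bp of the edge of an annotated centromere (59.2%, 95% Wilson interval 45.2 to 71.8%). Only 0.182% of the input peaks of the same strain lay so close. Beyond these 29, the next centre was 3364 bp from a centromere, so any limit between 462 and 3364 bp gives the same division. A further 4 lay within 10 kb, which brought the share within 10 kb to 67.3% (53.4 to 78.8%), against 3.39% of the input peaks. The remaining 16 were on the arms, between 50959 and 448192 bp from the centromere. Without chromosome XI the share within 500 bp was 77.1% and that within 10 kb was 82.9%. The shares also depend on how neighbouring blocks are split. Merging *psh1 3Flag-CSE4* peaks closer than 100 bp left 28 psh1-only peaks, of which the 20 farther than 500 bp from a centromere were the majority.

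**Figure D1:**
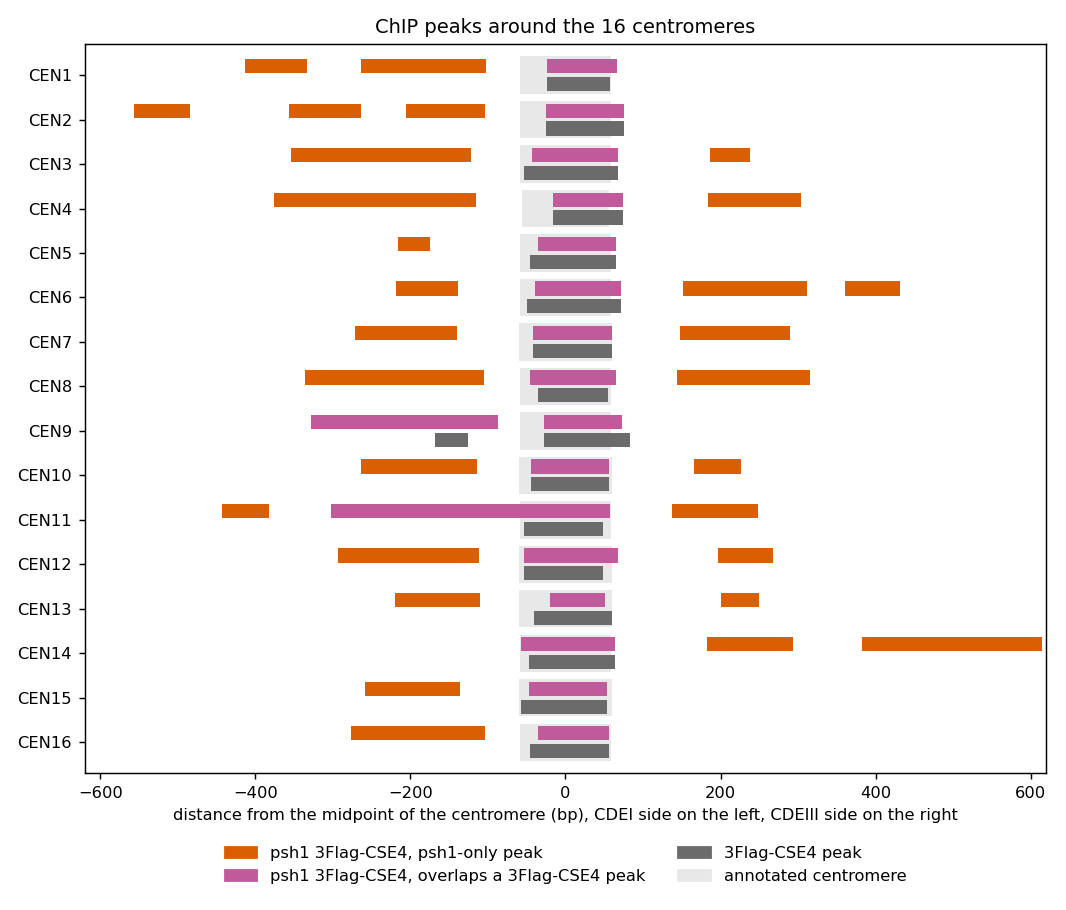
ChIP peaks around the 16 centromeres, drawn by distance from the centromere midpoint in bp with the CDEI side on the left. In each row *psh1 3Flag-CSE4* peaks are above and *3Flag-CSE4* peaks below. Psh1-only peaks (orange) stand on at least 1 side of 15 of the 16 centromeres, and none of them reaches the annotated centromere (light grey). The rule largely sets the latter, since peaks that overlap a *3Flag-CSE4* peak are not psh1-only.

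At 15 of the 16 centromeres at least 1 psh1-only peak lay within 500 bp. Both sides had one at 9 centromeres (*CEN3*, *CEN4*, *CEN6*, *CEN7*, *CEN8*, *CEN10*, *CEN11*, *CEN12* and *CEN13*), only the CDEI side at 5 (*CEN1*, *CEN2*, *CEN5*, *CEN15* and *CEN16*), and only the CDEIII side at *CEN14*. By peaks, 17 were on the CDEI side and 12 on the CDEIII side. The nearest peak on each side had its centre a median 138 bp from the centromere edge on the CDEI side (14 centromeres, 97 to 354 bp) and 168 bp on the CDEIII side (10 centromeres, 134 to 189 bp). These ranges overlap.

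*CEN9* was the exception because of the rule and not because its border was empty. Its CDEI side carried a peak of 241 bp in *psh1 3Flag-CSE4* and of 41 bp in *3Flag-CSE4*, and since they overlapped the site was not psh1-only. At *CEN11* the centromeric peak itself was 361 bp wide in *psh1 3Flag-CSE4* and 101 bp in *3Flag-CSE4*, and it ran out on the CDEI side. Over the 16 centromeres, the centromeric peak was wider in *psh1 3Flag-CSE4* at 5, of equal width at 4 and narrower at 7. *CEN11* was the only centromere where the widths differed by more than 30 bp.

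None of the 29 bordering peaks shared a base with an annotated centromere, and the gap between the peak and the centromere ran from 44 to 426 bp (median 89.0 bp). The rule largely sets this, since every centromere carried a *3Flag-CSE4* peak. A peak that ran into it was not psh1-only, as at *CEN11*. The bordering peaks came as separate blocks. Neighbouring peak centres around a centromere, the centromeric peak included, were a median 210 bp apart (30 pairs, 155 to 315 bp). At *CEN2* there were 3 such blocks in a row on the CDEI side, with centres 97, 252 and 462 bp from the centromere. *CEN1* had 2 on its CDEI side, and *CEN6* and *CEN14* had 2 on their CDEIII side.

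The bordering peaks were the wide ones. Their median width was 111 bp (41 to 261 bp, n = 29), against 56.0 bp (41 to 101 bp, n = 20) for the psh1-only peaks farther out. The 10 widest psh1-only peaks, which are also all that were as long as the DNA wrapped on a nucleosome, were within 500 bp of a centromere. The widest was 261 bp on the CDEI side of *CEN4*, between *RMD1* and *NTH1*, which encodes a neutral trehalase. Peaks of 231 bp followed on the CDEI side of *CEN3* and of *CEN8* and, 440 bp out, on the CDEIII side of *CEN14* toward *CIT1*, the mitochondrial citrate synthase gene. The peak on the CDEI side of *CEN12*, between *DNM1* (a dynamin-related protein of mitochondrial division) and *YLR001C*, was 181 bp wide. Peaks of 171 bp lay on the CDEIII side of *CEN8* and beside *CEN16*, between *HAT1* (a histone acetyltransferase) and *CIT3*. The other widest ones were 161 bp at *CEN1*, 161 bp at *CEN6* and 151 bp at *CEN10*.

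Each bordering peak that was nearest to its centromere can be placed by its genes. At *CEN1* it lay between the divergent genes *TFC3*, for a subunit of the RNA polymerase III factor TFIIIC, and *NUP60*, for a nuclear pore protein, with its centre 125 bp from the centromere. The second *CEN1* peak (81 bp) had its centre inside *TFC3*, 16 bp from the start of the reading frame. At *CEN2* all 3 peaks (71, 91 and 101 bp) lay between *ECM15* and *NTH2*. At *CEN3* the 231 bp peak on the CDEI side and the 51 bp peak on the CDEIII side lay between *YCL001W-B* and *YCR001W*. At *CEN4* the peak on the CDEIII side was 121 bp wide and 210 bp from *NTH1*.

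*CEN5* had the narrowest bordering peak, of 41 bp, between *IRC22* and *MNN1*, a mannosyltransferase gene. At *CEN6* the peak on the CDEI side (81 bp) had its centre in *DEG1*, a tRNA pseudouridine synthase gene, 69 bp before its end, and those on the CDEIII side (161 and 71 bp) lay between *DEG1* and *LOC1*. At *CEN7* the peak on the CDEIII side (141 bp) was between *ERG26*, of ergosterol synthesis, and *EFM5*, and that on the CDEI side (131 bp) had its centre in *EFM5*, 52 bp before its end. Both *CEN8* peaks lay between *RPL14B*, a ribosomal protein gene, and *OSH7*. At *CEN10* the peaks (61 bp on the CDEIII side and 151 bp on the CDEI side) lay between *PRE3*, a proteasome subunit gene, and *AVT1*.

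The *CEN11* peaks lay between *MET14* (adenylylsulfate kinase) and *VPS1* (a dynamin-like GTPase), and measured 111 bp on the CDEIII side and 61 bp on the CDEI side, where the centre was 8 bp from *VPS1*. The CDEIII side of *CEN12* had a peak of 71 bp, 492 bp past the end of *DNM1*. At *CEN13* the peaks of 111 and 51 bp lay between *YPT7*, for the Rab GTPase of the vacuole, and *CDC5*, for the polo kinase. The nearer *CEN14* peak (111 bp) was between *DOM34* and *CIT1*. At *CEN15* the peak (121 bp) had its centre 8 bp inside *RRP6*, which encodes a nuclear exosome subunit. The flanking genes differ because each centromere is a different locus, and the shared position beside a centromere follows from the 500 bp limit that grouped these peaks.

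Between 500 bp and 10 kb lay 4 psh1-only peaks, all narrow and all between tandem genes. The nearest, 61 bp wide and 3364 bp from *CEN15*, was between *PFA4* and *IZH2*. On chromosome IV a 61 bp peak 5901 bp from *CEN4* lay 299 bp past the end of *ATP16*, an ATP synthase subunit gene, and 873 bp before *MCD1*, the cohesin subunit gene. On chromosome XI a 71 bp peak 7799 bp from *CEN11* was 9 bp from *ECM9*, and another of 71 bp, 9494 bp from *CEN11*, was 3 bp from *SFT1*, a Golgi SNARE gene. Both of these XI peaks thus covered the start of a reading frame.

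**Figure D2:**
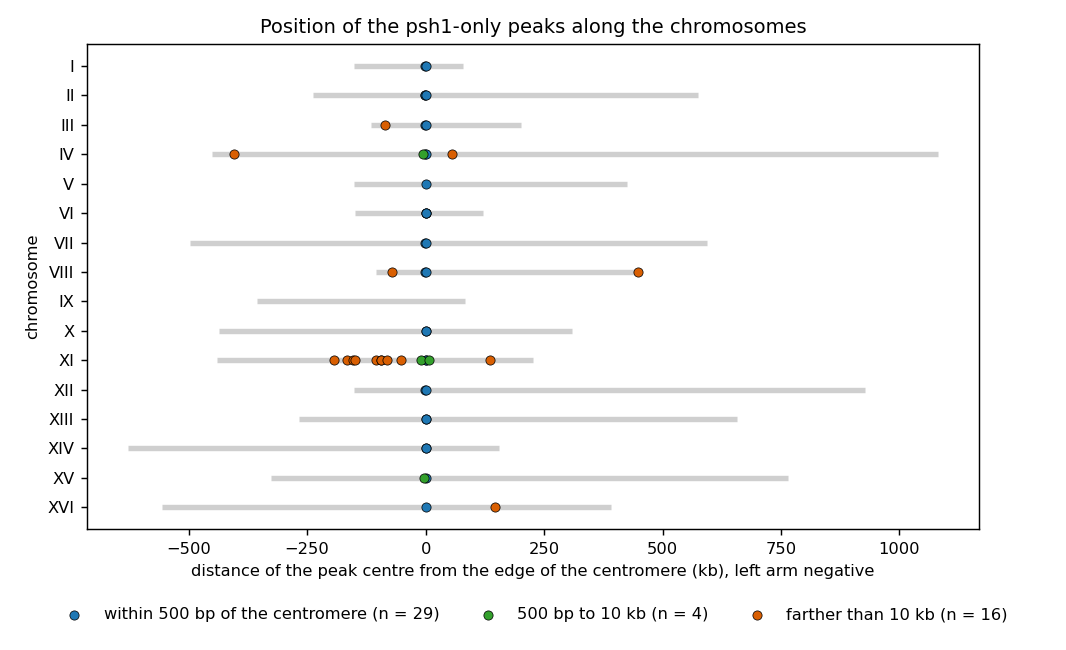
Position of the 49 psh1-only peaks, by distance of the peak centre from the centromere edge in kb, with 1 row for each chromosome and the arms drawn as grey lines to scale. The 29 peaks near a centromere (blue) overlie one another at 0, and 12 of the 20 farther out are on chromosome XI.

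Of the 20 psh1-only peaks farther than 500 bp from a centromere, 12 were on chromosome XI (60.0%, 38.7 to 78.1%), where 6.95% of the input peaks of the same strain and 5.52% of the nuclear bases lie. That is 18 per Mb on XI and from 0 to 3.55 per Mb on the other 15 chromosomes, of which 10 had none. Among the bordering peaks, 2 were at *CEN11* and 0 to 3 at each of the other centromeres. The wide centromeric peak of *CEN11*, which ran out on the CDEI side, is not counted here by the rule. With so few peaks beside any centromere, these counts cannot show whether XI had an excess there.

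The input libraries, which were not selected for Cse4, differed on XI too. The number of input peaks in *psh1 3Flag-CSE4* over that in *3Flag-CSE4* was 0.948 on XI and 0.658 to 0.903 on the other chromosomes. Of the *3Flag-CSE4* input peaks on XI, 99.6% were overlapped by an input peak of *psh1 3Flag-CSE4*, against 67.7% on the other chromosomes. Median input peak width in *psh1 3Flag-CSE4* was 111 bp on XI and 81.0 to 91.0 bp elsewhere, while it was 91.0 bp on all 16 chromosomes in *3Flag-CSE4*. In the other pair the ratio of *psh1 pGAL-3Flag-CSE4* to *pGAL-3Flag-CSE4* input peaks was 1.02 on XI and 0.336 to 0.556 elsewhere. Relative to the other chromosomes, XI thus had more input peaks in both strains without *PSH1*, and the number of copies of this chromosome was not tested. The part of this difference in the 12 distal peaks on XI was not tested either, and they are kept apart from the other 8 below.

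**Figure D3:**
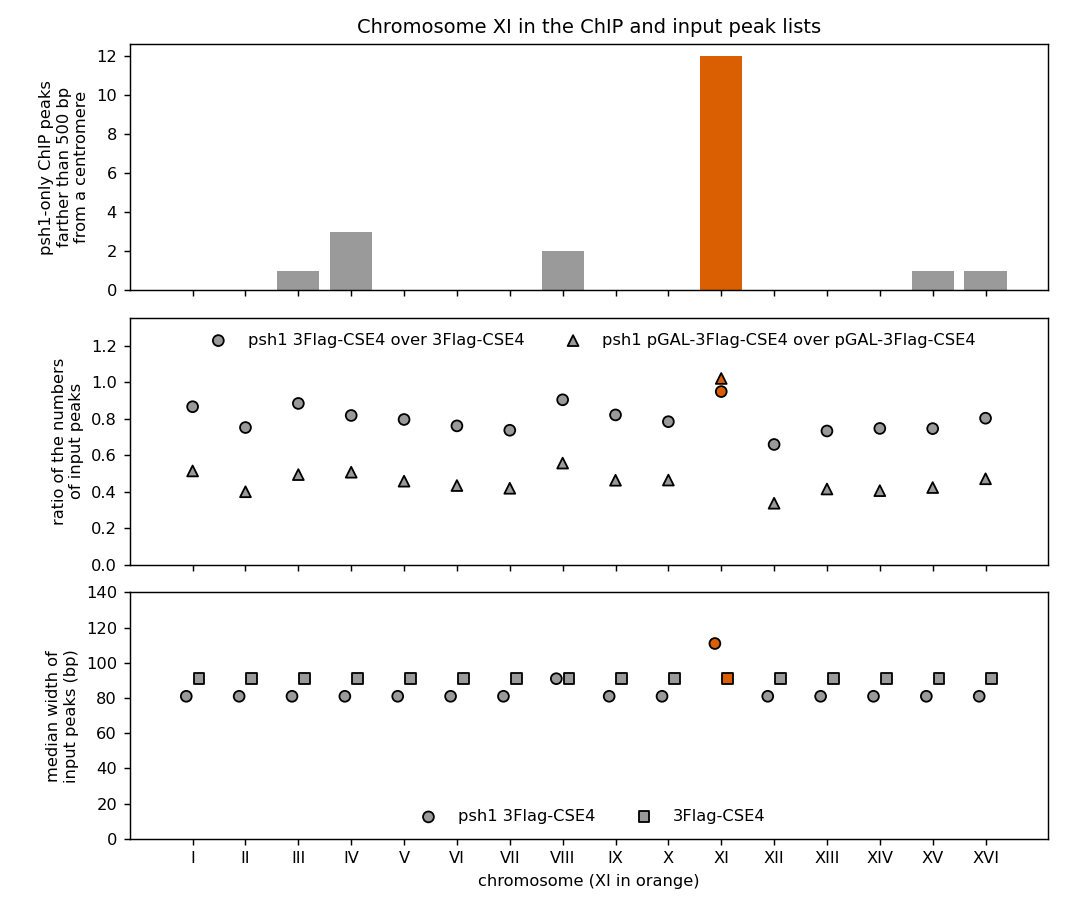
The number of psh1-only peaks farther than 500 bp from a centromere (top), the ratio of the numbers of input peaks without *PSH1* over with *PSH1* (middle) and the median width of the input peaks in bp (bottom), for each chromosome. Chromosome XI, in orange, has the highest value in each panel, except that its median width in *3Flag-CSE4* is 91.0 bp like all others.

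The 8 distal peaks off chromosome XI were spread over chromosomes III, IV, VIII, XV and XVI. They were narrow, with a median of 51 bp (41 to 61 bp). Besides the peaks near *CEN4* and *CEN15* already named, a 61 bp peak on chromosome III lay 444 bp past *KAR4*, a transcription factor gene of the mating response, and 820 bp from a replication origin. On chromosome IV a 51 bp peak lay between the convergent genes *SSB1*, for a ribosome-associated Hsp70, and *HO*, for the mating-type switching endonuclease, 126 bp from the end of *HO* and 40 bp from an origin. Also on IV, a 41 bp peak lay 244 bp before the noncoding transcript *SUT053* and 1395 bp from *PST2*.

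On chromosome VIII a 51 bp peak lay between *SBP1*, an RNA-binding protein gene, and *RPL8A*, a ribosomal protein gene. Another of 51 bp, 448192 bp from *CEN8* and the most distant of all, lay between *PHO12*, an acid phosphatase gene, and *IMD2*, an IMP dehydrogenase gene. On chromosome XVI a 41 bp peak had its centre inside *GRS2*, a glycyl-tRNA synthetase gene, 96 bp before its end and 240 bp past the end of *TEF1*, for translation elongation factor 1-alpha. Several genes at these sites, *PHO12*, *IMD2* and *TEF1* among them, have close copies elsewhere in the genome. How reads from such copies were placed is not given beyond the mapping score filter.

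Chromosome XI had 10 arm peaks, 9 on the left arm and 1 on the right. They lay between *GFA1* and *APE1* (41 bp), in *MIF2* (51 bp), between *VMA5* and *SMY1* (51 bp), *DHR2* and *PSG1* (61 bp), *TMA19* and *OAR1* (71 bp), *LPX2* and *CSE4* (81 bp), *CSE4* and *ELM1* (101 bp), *PHD1* and *SPC42* (51 bp), *TCD2* and *GPX1* (81 bp), and *DRE2* and *SIS2* (41 bp). The *MIF2* peak (chrXI:273400-273450) had its centre 31 bp into the reading frame of the gene for yeast CENP-C, the kinetochore protein that binds Cse4 nucleosomes. *SPC42* encodes a spindle pole body component, *SMY1* a kinesin-like protein and *VMA5* a subunit of the vacuolar proton pump.

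The peaks of 81 and 101 bp on either side of the *CSE4* reading frame (346075 to 346764) have a limit of their own. *cse4::KAN* removed the native gene, and the construct at *URA3* holds the *CSE4* promoter and sequence downstream of *CSE4*. Fragments from the construct can thus be placed at the native position, and the share of such fragments was not tested. Both strains carried the same construct and deletion, and *3Flag-CSE4* had no peak at these sites. The reading frame itself held 0 ChIP peaks in *psh1 3Flag-CSE4* and 0 in *3Flag-CSE4*. Without these peaks 47 psh1-only peaks remained, 12 of them on XI.

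**Figure D4:**
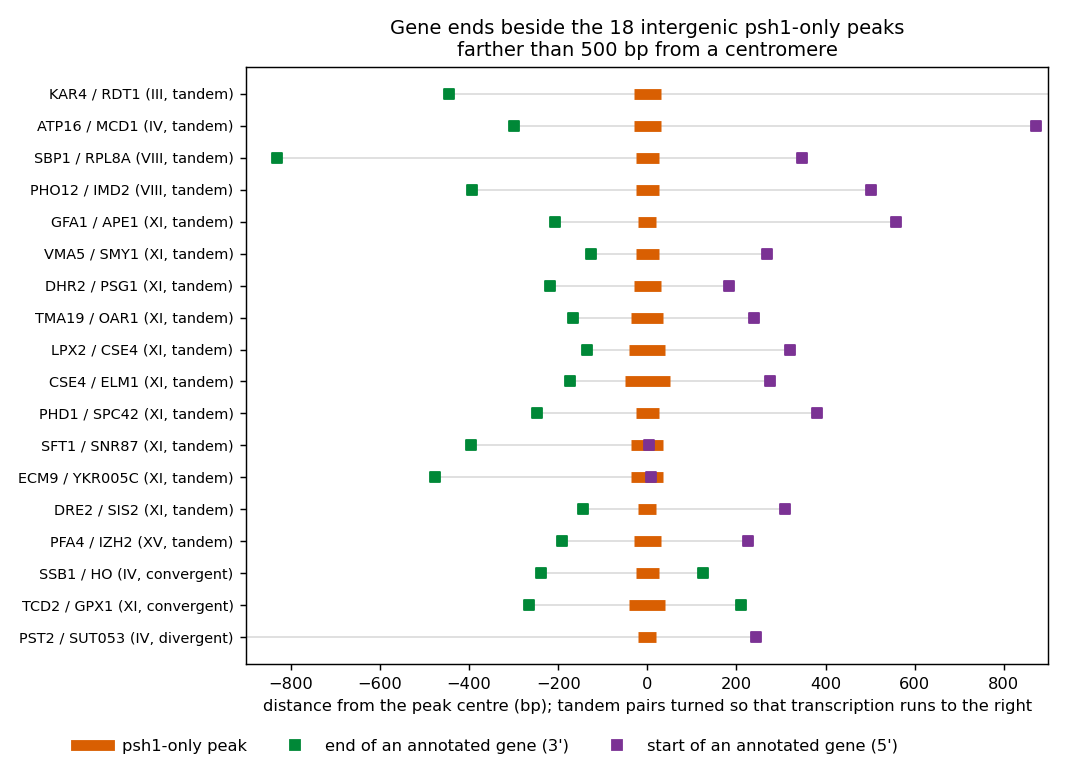
The 18 intergenic psh1-only peaks farther than 500 bp from a centromere, each drawn around its centre (0 bp) with the nearest annotated gene end (green, 3′) or start (purple, 5′) on each side. Tandem pairs are turned so that transcription runs to the right, and ends beyond the axis are not drawn. In 15 rows the peak lies between the end of a gene and the start of the next in the same direction.

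Most psh1-only peaks lay between genes. The centre was intergenic for 43 of the 49 (87.8%), against 32.5% of the input peaks of the same strain. This was not particular to them, since 79.1% of all *pGAL-3Flag-CSE4* ChIP peaks and 61.7% of all *psh1 pGAL-3Flag-CSE4* ChIP peaks were intergenic. Of the 17 *3Flag-CSE4* ChIP peaks, all were. The centromeres are themselves intergenic, so the distal peaks are also given alone. Farther than 500 bp from a centromere 18 of 20 centres were intergenic, and off chromosome XI 7 of 8. The 6 centres inside genes were all close to a gene end: 16, 31 and 8 bp from the start of *TFC3*, *MIF2* and *RRP6*, and 69, 52 and 96 bp from the end of *DEG1*, *EFM5* and *GRS2*.

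The distal intergenic peaks were mostly between genes read in the same direction. Of the 18, 15 (83.3%, 60.8 to 94.2%) were in tandem regions, against 52.2% of the intergenic input peaks, 2 (*SSB1*/*HO* and *TCD2*/*GPX1*) in convergent and 1 (*PST2*/*SUT053*) in divergent regions. Off XI the tandem share was 5 of 7. The centre was within 300 bp of the 3′ end of a flanking reading frame at 12 of 18 (66.7%, 43.7 to 83.7%), against 39.3% of the intergenic input peaks, and off XI at 3 of 7, a share near that of the input peaks. These are counts of 7 to 18 sites, and the ends are those of annotated reading frames, since transcript ends were not used here.

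Replication origins were within 500 bp of 10 of the 49 centres (20.4%, 11.5 to 33.6%), against 4.66% of the input peaks. Of these, 7 were at *CEN2*, *CEN3* and *CEN12*, centromeres that themselves lie beside origins. Farther out there were 3 of 20, at *SSB1*/*HO*, *TCD2*/*GPX1* and *ECM9*/*YKR005C*, and off XI 1 of 8. No tRNA gene and no long terminal repeat was within 500 bp of any psh1-only centre. A count of 0 of 49 allows a share of up to 6.12%, which is above the 3.22% and 3.29% of the input peaks, so a lack of either could not be seen at this number.

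The psh1-only peaks held less A and T than the centromeric ones, as the rule favours by leaving out peaks over the centromeres. Their median A+T content was 65.6% (55.7 to 75.2%), against 86.5% (65.6 to 89.3%) for the 17 *psh1 3Flag-CSE4* peaks that overlapped a *3Flag-CSE4* peak, and the bordering psh1-only peaks had 67.2%. Input peaks of the same strain within 500 bp of a centromere had a median of 67.0%, and intergenic input peaks farther out had 64.8%. The 20 distal psh1-only peaks had 64.8%, and the 8 of them off XI had 62.2%. The CDEI core TCACATG or TCACGTG, searched on both strands, was in all 16 centromeres and in 0 of the 49 windows that reached 73 bp to either side of a psh1-only centre. The CDEIII core TTCCGAA was in 14 of the 16 centromeres and in 0 of 49. The bordering centres were at least 97 bp from the centromere edge, so their windows could not reach its own CDEI or CDEIII. The same windows around the input peaks held these cores at 1.49% and 1.44%, below the 6.12% that a count of 0 of 49 allows. These letters are a description of the windows and say nothing of the factors.

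The psh1-only peaks were then set against the input peaks, stretches protected from the nuclease in chromatin as a whole. An input peak of *psh1 3Flag-CSE4* overlapped 45 of the 49 (91.8%), and an input peak of *3Flag-CSE4* overlapped 42 (85.7%). By the centre alone, 42 psh1-only peaks lay in an input peak of *psh1 3Flag-CSE4*, whose input peaks covered 30.8% of the intergenic bases, and 38 in one of *3Flag-CSE4*, whose input peaks covered 32.2%. At the 8 distal sites off XI the centre lay in an input peak of either strain at 8. In the input of *psh1 pGAL-3Flag-CSE4*, which covered 22.6% of the intergenic bases, 27 of the 49 centres lay in a peak. These were 9 of the 29 bordering and 18 of the 20 distal ones, and off XI 6 of the 8 distal ones. This input differed on XI, where its peaks overlapped 92.4% of the *3Flag-CSE4* input peaks, against 40.6% on the other chromosomes. The *psh1 3Flag-CSE4* peaks shared with *3Flag-CSE4*, nearly all centromeric, were overlapped by an input peak at 2 of 17 in either input. The centre of a distal psh1-only peak was a median 10 bp from the nearest *3Flag-CSE4* input centre (0 to 110 bp), and that of a bordering peak 20 bp (0 to 300 bp). All of the 7 psh1-only peaks with no *3Flag-CSE4* input peak were within 500 bp of a centromere, at *CEN1*, *CEN2*, *CEN4*, *CEN6*, *CEN12*, *CEN13* and *CEN16*. Those at *CEN4*, *CEN12*, *CEN13* and *CEN16* were overlapped by an input peak of *psh1 3Flag-CSE4*.

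The sites could be followed into the strains with the added *GAL* copy, and those strains were not used to choose them. A *psh1 pGAL-3Flag-CSE4* ChIP peak overlapped 49 of the 49 sites and a *pGAL-3Flag-CSE4* peak 48, the exception being the 61 bp peak beside *VPS1*. Of the intergenic input peaks of *psh1 3Flag-CSE4*, 78.6% were overlapped by a *psh1 pGAL-3Flag-CSE4* ChIP peak and 25.9% by a *pGAL-3Flag-CSE4* ChIP peak. The overlapping peaks had a median width of 431 bp in *psh1 pGAL-3Flag-CSE4* (121 to 1031 bp) and 116 bp in *pGAL-3Flag-CSE4* (61 to 341 bp). Only 2.34% of all *psh1 pGAL-3Flag-CSE4* peaks and 13.7% of all *pGAL-3Flag-CSE4* peaks were at least that wide, and wide peaks are also the likelier to meet any given site. A wide peak can cover several sites, and the 49 were under 44 peaks in *psh1 pGAL-3Flag-CSE4* and 48 in *pGAL-3Flag-CSE4*.

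**Figure D5:**
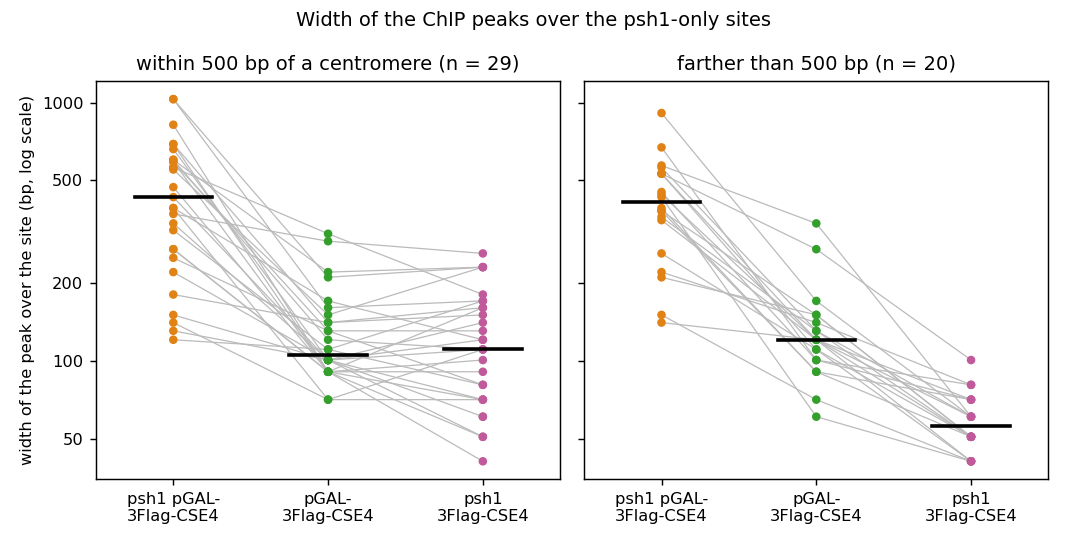
Width in bp (log axis) of the ChIP peak over each psh1-only site in *psh1 pGAL-3Flag-CSE4*, *pGAL-3Flag-CSE4* and *psh1 3Flag-CSE4*, for the 29 sites within 500 bp of a centromere (left) and the 20 farther out (right). Each grey line is 1 site and the black bars are medians. On the right every site is wider in *pGAL-3Flag-CSE4* than in *psh1 3Flag-CSE4*, and on the left the medians are 106 and 111 bp.

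Overexpressing Cse4 with *PSH1* present gave wider peaks than deleting *PSH1* at the distal sites and about the same width at the bordering sites, a difference that was not tested. At the 20 distal sites the *pGAL-3Flag-CSE4* peak was wider than the *psh1 3Flag-CSE4* peak at 20, with medians of 121 and 56.0 bp. The distal sites were chosen from the *psh1 3Flag-CSE4* list, where they were narrow. No peak in the ChIP lists of the *GAL* strains was under 41 bp, so these sites had little room to be narrower there. The median over all *pGAL-3Flag-CSE4* peaks was 71.0 bp. At the bordering sites the *pGAL-3Flag-CSE4* peak had a median of 106 bp, close to the 111 bp of *psh1 3Flag-CSE4*, and of the 28 sites with a *pGAL-3Flag-CSE4* peak it was the wider at 12, equal at 3 and narrower at 13. In *psh1 pGAL-3Flag-CSE4* every site was wider than in *psh1 3Flag-CSE4*, with medians of 431 bp at the bordering and 411 bp at the distal sites (376 bp off XI), and at 9 of the 29 bordering sites the peak also covered the centromere. The widest of these, 1031 bp, covered *CEN8* and both of its psh1-only sites. Among the distal sites, that beside *KAR4* was widest in *psh1 pGAL-3Flag-CSE4*, at 911 bp, against 171 bp in *pGAL-3Flag-CSE4*, and that between *DHR2* and *PSG1* measured 571 bp in *psh1 pGAL-3Flag-CSE4*, against 341 bp in *pGAL-3Flag-CSE4*, where it was the widest. Widths are those above 1 common height on a signal scaled to the centromeres of each strain, so they do not measure the amount of Cse4.

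Many of the psh1-only peaks lay near the limit of the rule. The smallest gap to a *3Flag-CSE4* peak was 59 bp, at *CEN12* and *CEN16*, and 16 of the 49 had a gap under 100 bp. Among the 17 that were left out, the smallest overlap was 41 of 241 bases, at the *CEN9* border, and the *CEN11* peak shared 101 of 361 bases.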

How the data were processed

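Input and anti-Flag ChIP libraries of 4 strains were analysed from the deposited peak lists. The authors mapped paired reads to sacCer3 with BWA, kept mononucleosome-sized proper pairs with SAMtools and R, and called peaks per library with DANPOS2. For ChIP the input was subtracted, each strain was scaled to its own centromere coverage, the rDNA was set to 0, and regions were kept above the lowest average centromere coverage in *3Flag-CSE4*. The deposited lists give starts and ends in bp on a 10 bp grid, with the score field 0 in every deposited line, so no threshold could be raised, and the study's read depths and coverage tracks were not analysed here. No untagged ChIP library was used.

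Positions count from 1. The reference was RefSeq R64, the sacCer3 sequence, of strain S288C and not W303, and 0 peak ends lay beyond a chromosome end. Printed sequences and annotations are from RefSeq R64. Genes are annotated reading frames and noncoding genes (6431 nuclear). Peaks overlapped when they shared at least 1 bp, and distances run from peak centre to centromere edge. Input peaks of *psh1 3Flag-CSE4* gave the background. Computations used Python 3.11.15, numpy 2.4.6 and scipy 1.17.1, figures matplotlib 3.10.9, and the overlap code was tested on simulated data. No test between strains was made.

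Named genes were those holding a peak centre or flanking it, for all peaks farther than 10 kb from a centromere, the 10 widest, the peaks nearest each centromere, and chromosomes with at least 5 psh1-only peaks, besides *PSH1*, *CSE4* and *URA3*. The 4 peaks between 500 bp and 10 kb and the other bordering peaks were named to cover all members. Members and lists were chosen with earlier results of these data known, and the 500 bp limit, gene direction, gene ends and motifs were added after the data were seen. Alternatives were other overlaps, widths, merging, zones, gene sets, inputs and windows, and leaving out chromosome XI.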

Additional observations from a re-analysis of the deposited data

How the results depend on the processing

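Of the 26 alternatives tried, 23 left the value within its limits, that is within 1.5 times for a count and within the 95% counting interval for a share or a median. The alternatives with a 500 bp zone were judged by the interval of the 10 kb share. The 77.1% within 500 bp without chromosome XI lay outside the interval of the 500 bp share itself (59.2%, 45.2 to 71.8%). Merging *psh1 3Flag-CSE4* peaks closer than 100 bp lowered the number of psh1-only peaks to 28 from 49, because bordering peaks then joined the centromeric peak or one another. After merging, the peaks within 500 bp of a centromere were the minority of the psh1-only peaks. Leaving out chromosome XI raised the share of psh1-only peaks within 10 kb of a centromere to 82.9% from 67.3%, and it left 35 psh1-only peaks. Taking all bases within 73 bp of the centre raised the median A+T content to 67.3% from 65.6%. Requiring an overlap of at least 50% gave 51 psh1-only peaks, a minimum width of 51 bp gave 44, and a distance of more than 100 bp from a *3Flag-CSE4* peak gave 33. The intergenic share was 81.6% where the whole peak, not its centre, had to lie outside genes. The alternatives with a 500 bp zone, without the peaks beside *CSE4* and for the number on XI were chosen after seeing the data. The alternative without dubious reading frames was not run, because the annotation used does not mark them. No paired analysis was possible because a strain had only 1 library of each type. Positions of peaks from 1 library, used here without depth or height, cannot show whether a site without a *3Flag-CSE4* peak lacked Cse4 or lay just under the common height. Differences between W303 and the S288C reference were not tested.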
